A study of Mus musculus with 2 samples.

Results

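The F-box proteins are the interchangeable substrate receptors of a large class of ubiquitin ligases, and their transcripts were examined here in mouse hindlimb muscle together with the core subunits they work with. Members were all probe sets that the platform annotation assigns to a single gene whose symbol begins with Fbxo, Fbxl or Fbxw and a number, plus Skp1a (listed as Skp1 in the annotation), Skp2, Cul1 and Rbx1. This rule took 79 of 35556 probe sets, which represent 75 of 19938 genes: 36 Fbxo, 18 Fbxl and 17 Fbxw genes and the 4 named ones. A further member by name only is Fbxl12os, a non-coding transcript on the strand opposite Fbxl12, which is counted among the 18. RNA came from the hindlimb muscle of C57BL/6J males on standard chow, either wild type or carrying a Syn4 (syntaxin 4) transgene for overexpression, with 1 whole-transcript microarray per genotype. Syntaxin 4 sits in the plasma membrane as a SNARE and lets vesicles loaded with the glucose transporter GLUT4 fuse there, and the series title concerns insulin sensitivity and longevity. The labels do not give the promoter of the transgene, the age of the mice or the number of mice behind each array.

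An SCF ligase is built on the scaffold Cul1. At opposite ends it holds the RING protein Rbx1, where the ubiquitin-loaded enzyme docks, and Skp1, which binds the F-box of the substrate receptor. The receptor decides which protein is tagged: Fbxw proteins recognise substrates through WD40 repeats, Fbxl proteins through leucine-rich repeats, and Fbxo proteins through a variety of other domains. In muscle the best known is Fbxo32 (atrogin-1), whose transcript is induced by FOXO factors when muscle wastes through fasting, denervation or disease and is restrained by insulin signalling.

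The deposited RMA values are on a log2 scale, each difference is transgenic minus wild type, and where a pair of values is given the wild-type value comes first. With a single array per genotype no difference could be set against the spread between mice, so nothing below was tested. A 1.5-fold difference (0.58 on the log2 scale) served as a rule of size, and a level filter of 6.79, the median over all genes of the higher of the 2 values, marked genes bright enough for counting. For orientation, 95% of 1027 olfactory receptor genes had a mean at or under 5.42. A probe set's brightness also depends on its probes, so levels are compared between arrays and not between genes. The array labelled transgenic had Stx4a at 12.20, where the wild-type array had 8.84. All 8 markers of skeletal muscle fibres lay between 13.19 and 14.45 on both arrays. Markers of other fibre and cell types differed between the arrays as well. All 8 markers of slow fibres were lower by at least 1.5-fold in the transgenic array (mean level 12.57 and 11.73). Those of white adipocytes were higher in 8 of 8 cases and past 1.5-fold in 5 (mean level 8.06 and 9.44). All measured markers of fibroblasts (7 genes, 2 past 1.5-fold, median difference 0.23), smooth muscle (4 genes, 1 past, 0.33) and Schwann cells (4 genes, 1 past, 0.46) were higher too, whereas those of fast fibres (8 genes), macrophages (6) and endothelial cells (5) had differences of both signs and none past 1.5-fold. In whole muscle, fewer cells of a type and less RNA per cell cannot be told apart, and the part of these differences in the results below was not tested.

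Most F-box transcripts had nearly the same level on both arrays, as did most genes. Of the 75 members, 55 (73.3%) differed by no more than 0.20 on the log2 scale, against 66.7% of all genes. Fbxo44 was the only member above the level filter to pass 1.5-fold, and it was lower in the transgenic array. Fbxo32 had the largest positive difference above the filter, 0.47, short of 1.5-fold.

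In counts, 43 members were at or above the level filter, all 43 of them on both arrays, so none passed through the array in which it was higher. None of the 43 was higher by at least 1.5-fold, where 2.66% of the 9974 genes above the filter were. In the other direction 1 of the 43 was lower by 1.5-fold, against a background of 1.71%. Without a filter 1 of 75 was higher (background 1.76%) and 1 lower (1.19%). These shares are near the background and set the members apart in neither direction. Of the 75 members, 44 had a difference above 0 (46.9% of all genes did), 27 were below 0 (49.6% of all genes) and 4 were at 0. The median was 0.05 against 0.00 over all genes. Among the 43, 28 were above 0 and 14 below, where 53.5% and 44.2% of the 9974 genes were, and the median was 0.06 against 0.03. Differences over 0.30 in size were found for 8 of 75 members (10.7%), against 16.7% of all genes. The medians of the families were 0.08 for the 36 Fbxo, 0.04 for the 18 Fbxl and 0.04 for the 17 Fbxw genes.

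**Figure D1:**
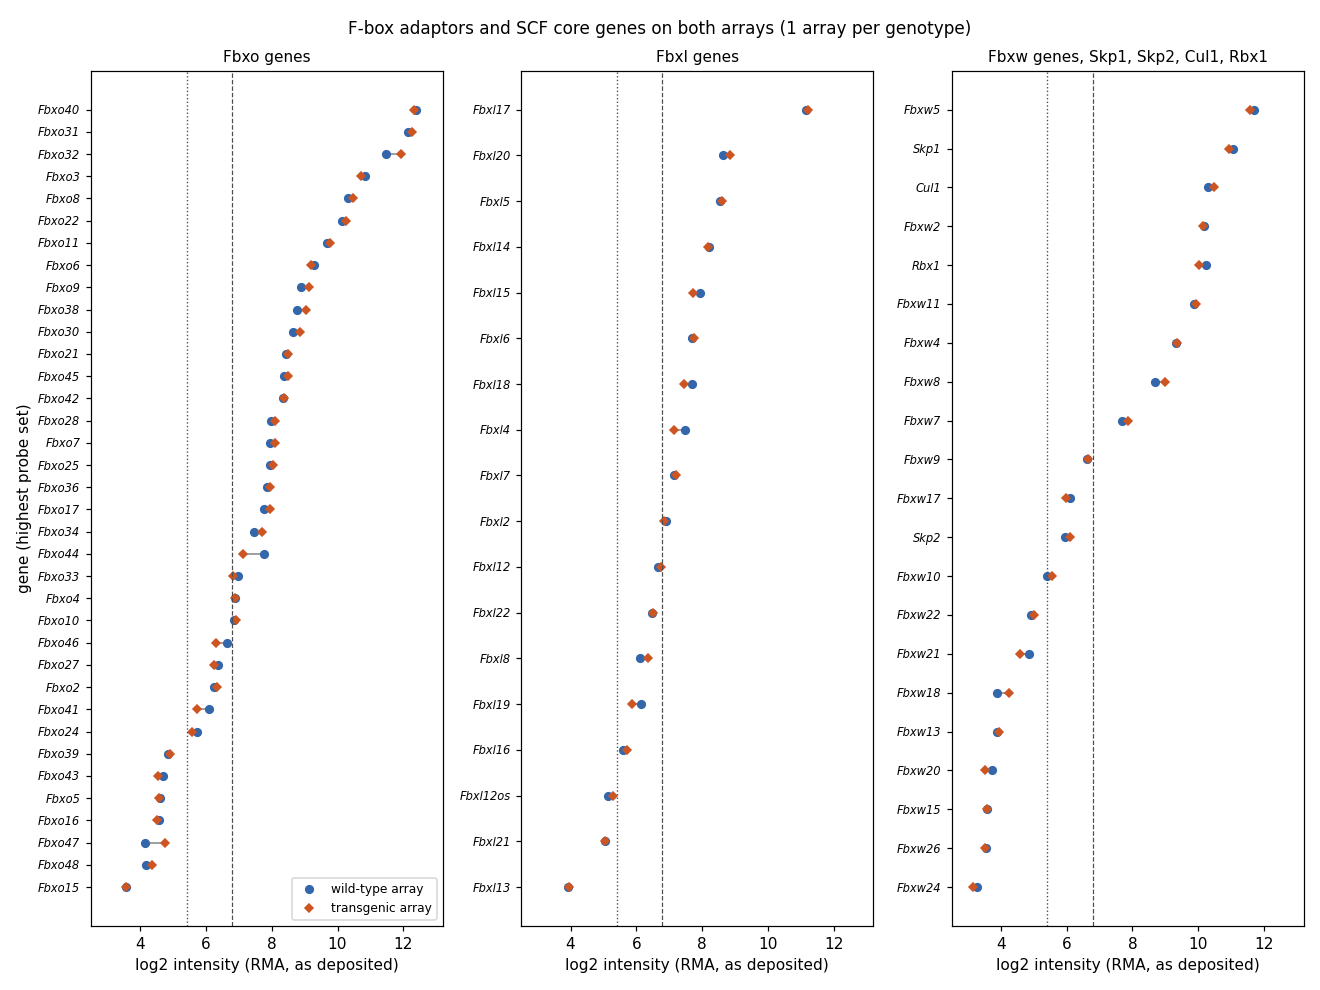
Log2 intensity (x axis) of each of the 75 genes (y axis, sorted by mean level within a panel) on the wild-type array (blue circles) and the transgenic array (orange diamonds), with a grey line joining the pair. Dotted and dashed lines mark the olfactory receptor percentile of 5.42 and the level filter of 6.79. The pairs of Fbxo44, Fbxo32 and Fbxo47 are the widest, and most other pairs nearly coincide.

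Core subunits of the SCF ligase were similar in both arrays. Skp1, the adaptor that binds every F-box, read 11.06 on the wild-type array and 10.93 on the transgenic array, a difference of -0.13. Cul1, the scaffold, was at 10.30 and 10.47, a difference of 0.17. The RING subunit gene Rbx1 was at 10.24 and 10.02 (-0.22) on its brighter probe set and at 8.94 and 8.86 (-0.08) on the other. Of the 20 probe sets nearest in identifier number to the brighter Rbx1 probe set, 0 belong to genes on chromosome 15, where Rbx1 lies, and most belong to genes on chromosome 17, so where this probe set lies is uncertain. Scaffold and partners had opposite signs. Differences of these sizes were common, reached by at least 152 of the 500 genes nearest in mean level.

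The muscle-related adaptors split into Fbxo32 and the rest. Fbxo32 read 11.47 on the wild-type array and 11.94 on the transgenic array, which is 1.39-fold higher (0.47). Of the 500 genes nearest in level, 29 differed by at least as much in either direction. Fbxo25, which encodes its closest relative, was at 7.96 and 8.04 (0.08). Fbxo30 (MUSA1), a ligase adaptor of denervation atrophy, was at 8.64 and 8.86 (0.22), a size that 172 of 500 like-level genes reached. Fbxo21 (SMART), also linked to atrophy, was at 8.43 and 8.50 (0.07). Fbxl22, a sarcomeric adaptor of the Z-disc, was at 6.49 and 6.51, under the filter, and its difference of 0.02 became -0.005 when both arrays were quantile-normalized again. With Fbxo40, described next, 5 of the 6 genes of this group had a positive difference, where 46.9% of all genes did. Above the level filter it was 4 of 5, where 53.5% of genes had one. None of the 6 passed 1.5-fold, where 1.76% of all genes were higher and 1.19% lower by that much.

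Fbxo40 is made mainly in muscle and targets the insulin receptor substrate Irs1 for degradation. Its values were 12.40 on the wild-type array and 12.32 on the transgenic array, a difference of -0.08 that 365 of 500 like-level genes reached. The transcript of its substrate, Irs1, was at 9.62 and 9.84 (0.22). Fbxw8, whose product joins the scaffold Cul7 in a second ligase that also acts on Irs1, was at 8.67 and 8.98. That difference of 0.31 (1.24-fold) was the next largest after Fbxo32 among members above the filter, and 92 of 500 like-level genes reached it. Cul7 itself was at 6.71 and 7.10 (0.39), with the wild-type value under the level filter. Fbxw8 and Cul7 were thus both higher, each by less than 1.5-fold, while Fbxo40 was near equal.

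Fbxo40 has 2 annotated starts in RefSeq. The region before the outermost is shown because its RefSeq window holds the E-box CAGCTG, a letter pattern bound by myogenic factors of the MyoD type. It covers the 250 bases upstream of the start at chr16:36990468-36990717, minus strand, GRCm38.p6, with CAGCTG in capitals.

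Fbxo40: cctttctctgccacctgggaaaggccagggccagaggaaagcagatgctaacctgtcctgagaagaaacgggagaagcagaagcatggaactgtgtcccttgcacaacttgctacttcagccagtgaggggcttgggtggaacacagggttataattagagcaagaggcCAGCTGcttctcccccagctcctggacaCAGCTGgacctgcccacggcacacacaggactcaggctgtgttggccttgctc

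The motif begins at positions -81 and -53 relative to the annotated start. The window of the other start also holds it, at -89. RefSeq promoter windows were matched for 57 of the 75 members. Searched on both strands of the 250 bases, CAGCTG was found for 17 of the 57 (29.8%), against 14.7% of 27025 genes. All 6 matched genes of the Fbxw cluster on chromosome 9, described below, held it, and 11 of the other 51 members (21.6%). The GC box GGGCGG was found for 36 of 57 members (63.2%), against 35.4% of genes. The FOXO motif TGTTTAC was found for 0 of 57, against 3.54% of genes. At that share 57 genes would hold few, so the 0 does not set the members apart. None of these 3 letter patterns contains another, and a match is a description and not a binding site.

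Fbxo44 belongs to a small group of F-box proteins with a sugar-binding type of domain, of which Fbxo2 and Fbxo6 recognise glycoproteins in the clearance of misfolded proteins. It read 7.75 on the wild-type array and 7.13 on the transgenic array, 1.54-fold lower (-0.62). Of the 500 genes of like level, 13 differed by at least as much. Fbxo44 had the largest difference in size of the 75 members, so a low count follows in part from that choice. Its neighbours on chromosome 4, within the same group, did not share this difference. Fbxo6 was at 9.28 and 9.19 (-0.09), and Fbxo2 at 6.25 and 6.33 (0.08), under the filter. The 2 relatives on chromosome 7 were also near equal, with Fbxo17 at 7.75 and 7.94 (0.19) and Fbxo27 at 6.37 and 6.25 (-0.12), the latter under the filter. Of the 5 genes 3 were lower and 2 higher, and Fbxo44 stood alone past 1.5-fold.

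Fbxo44 and Fbxo2 are transcribed away from each other, so their upstream windows are shown side by side. They lie at chr4:148160095-148160344 (minus strand) and chr4:148160418-148160667 (plus strand) of GRCm38.p6, 73 bases apart, each written toward its own start, with the GC box GGGCGG in capitals.

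Fbxo44: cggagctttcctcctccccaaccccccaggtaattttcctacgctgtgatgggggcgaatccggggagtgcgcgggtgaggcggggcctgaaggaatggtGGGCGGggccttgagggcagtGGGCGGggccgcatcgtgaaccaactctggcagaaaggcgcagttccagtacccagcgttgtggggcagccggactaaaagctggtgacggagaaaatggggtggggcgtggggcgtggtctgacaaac

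Fbxo2: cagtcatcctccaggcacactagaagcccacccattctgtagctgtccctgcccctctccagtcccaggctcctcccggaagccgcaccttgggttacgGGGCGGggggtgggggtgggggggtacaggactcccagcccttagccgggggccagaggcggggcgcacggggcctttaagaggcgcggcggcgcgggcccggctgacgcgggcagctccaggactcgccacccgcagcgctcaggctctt

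The Fbxo44 window held 2 GC boxes and the Fbxo2 window 1, with a GC content of 64.4% and 71.6%, against a median of 52.4% over all windows. Fbxo44 has 3 annotated starts in RefSeq, and the outermost is the one printed; the windows of the other two held no GC box. The array gives a single probe set for the gene, so which start the lower signal belongs to was not measured.

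**Figure D2:**
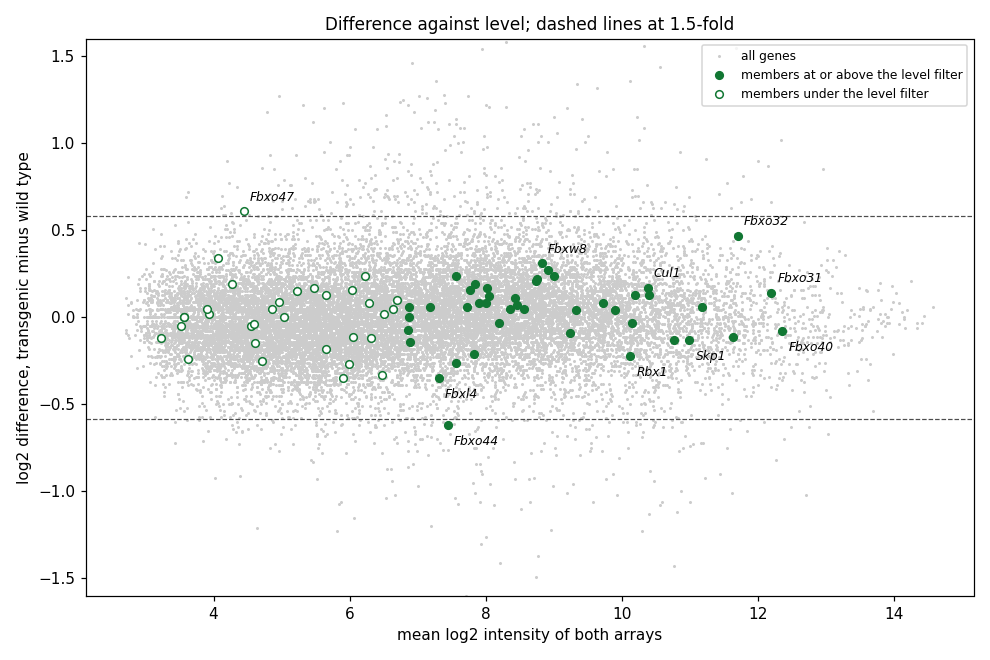
Log2 difference, transgenic minus wild type (y axis), against the mean log2 intensity of both arrays (x axis) for all genes (grey) and the 75 members (green, filled at or above the level filter and open under it). Dashed lines mark 1.5-fold, and 40 genes beyond 1.6 in size are outside the plot. Fbxo44 lies just below the lower line, Fbxo47 just above the upper, and the other members between them.

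Adaptors of the cell cycle were close to equal in both arrays. Fbxw7, which removes cyclin E, Myc, Jun and Notch, was at 7.69 and 7.85 (0.16) on its brighter probe set, and its other probe set was at 4.93 on both arrays. Fbxo31, an adaptor for cyclin D1, was at 12.13 and 12.27 (0.14), and its second probe set at 10.39 and 10.53 gave the same difference of 0.14. Skp2, the receptor for the cell cycle inhibitor p27, was under the filter at 5.95 and 6.11 (0.16). The beta-TrCP gene Fbxw11, whose product acts on beta-catenin and the NF-kappa-B inhibitor, was at 9.88 and 9.92 (0.04). Fbxl7, which acts on Aurora A, was at 7.15 and 7.21 (0.06), and at 5.45 and 5.43 (-0.02) on a dimmer probe set. Over the 10 genes of this group the range was -0.15 to 0.31 and the median 0.08. Lowest were the inhibitors of the anaphase-promoting complex, Fbxo43 (4.69 and 4.54) and Fbxo5 (4.61 and 4.57), both under the olfactory receptor percentile, and highest was Fbxw8.

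Receptors tied to mitochondria had opposite signs. Fbxl4, a mitochondrial protein whose loss depletes mitochondrial DNA, read 7.49 on the wild-type array and 7.14 on the transgenic array. Its difference of -0.35 (1.27-fold lower) was the most negative after Fbxo44 among members above the filter, and 65 of 500 like-level genes reached it. Fbxo7, which works with parkin in mitophagy, was at 7.94 and 8.11 (0.17). The iron sensor Fbxl5, which degrades the iron regulatory protein Irp2, was near equal at 8.54 and 8.59 (0.05), and the transcript of its substrate, Ireb2, was at 9.08 and 9.20 (0.12). Fbxl21, which acts on the cryptochromes of the circadian clock, was at 5.04 on both arrays, under the olfactory receptor percentile.

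Among the remaining members above the filter, differences ran from -0.26 to 0.27. On the positive side, Fbxo38 was at 8.78 and 9.05 (0.27). Fbxo9, a receptor for the mTOR partners Tel2 and Tti1, was at 8.89 and 9.13 (0.24). Fbxo34 was at 7.45 and 7.69 (0.24). Fbxl20, which degrades the presynaptic protein Rim1, was at 8.63 and 8.84 (0.21). For each of these 4, at least 120 of the 500 genes of like level reached the same size. On the negative side, Fbxl18 was at 7.70 and 7.44 (-0.26). Fbxl15, which acts on the ligase Smurf1, was at 7.94 and 7.73 (-0.21). Fbxo33 was at 6.96 and 6.82 (-0.14) and Fbxo3, which acts on Fbxl2, at 10.84 and 10.71 (-0.13). Fbxw5 was at 11.69 and 11.58 (-0.11). These differences too were common among like-level genes, of which at least 132 of 500 reached them. Of the 10 members with the highest wild-type values, between 10.24 and 12.40, none but Fbxo32 differed by over 0.22. The 10.24 and the 0.22 are those of the brighter Rbx1 probe set, whose place is uncertain. The 10 members include Fbxo8, with a Sec7 domain (10.33 and 10.46), and Fbxl17, a quality control receptor for BTB proteins (11.15 and 11.21).

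Under the filter lay 32 members, and 18 of them were at or under the olfactory receptor percentile on both arrays. These dim genes cannot be called expressed or absent from these values. Mice carry a cluster of Fbxw genes on chromosome 9 that is known for transcription in oocytes. The gene table lists 15 of them, and the 8 with a probe set of their own ran from 3.28 to 4.92 on the wild-type array and from 3.16 to 5.01 on the transgenic array. Their differences ran from -0.25 (Fbxw21, 4.84 and 4.59) to 0.34 (Fbxw18, 3.89 and 4.23), with a median of -0.02. The cluster genes are close copies of each other, so their probe sets may share signal, and 2 further probe sets, each assigned to several of them, were at 4.10 and 4.29 and at 3.81 and 3.73. The 6 oocyte markers, Zp2 and Gdf9 among them, lay between 3.88 and 5.53, none above the level filter. Fbxw17, on chromosome 13, was at 6.10 and 5.99. Fbxo47, a meiotic gene, read 4.14 on the wild-type array and 4.75 on the transgenic array. The 0.61 between them passes 1.5-fold, but both values lie under 5.42, so it is given as a value and not as a fold. Fbxl12os was at 5.15 and 5.30 (0.15), and Fbxl12 at 6.65 and 6.75 (0.10). Of the dim members outside the cluster, Fbxo41 (6.08 and 5.73, -0.35) and Fbxo46 (6.64 and 6.31, -0.33) were lowest.

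Genes that switch SCF and other cullin ligases on and off, or work with them, showed small differences of mixed sign. Cullins become active when the ubiquitin-like protein Nedd8 is attached, the COP9 signalosome removes it, and Cand proteins exchange the F-box receptors. Of the 30 measured genes of this machinery none passed 1.5-fold, 12 were above 0 and 18 below, and the median was -0.02. All but 1 were above the level filter, where 2.66% of genes were higher and 1.71% lower by 1.5-fold. At those shares few of 30 would pass, so the absence does not set these genes apart. By sign, 53.5% of genes above the filter were above 0 and 44.2% below. Highest were Dcun1d3, a Nedd8 ligase factor, at 9.42 and 9.84 (0.42), and Rnf7, the RING partner of Cul5, at 9.31 and 9.72 (0.41). The muscle-enriched exchange factor Cand2 followed at 10.47 and 10.84 (0.37), whereas its broadly expressed relative Cand1 was at 8.14 and 8.25 (0.11). Lowest was Ube2f, a Nedd8-conjugating enzyme, at 7.71 and 7.43 (-0.28). Of the 9 subunits of the COP9 signalosome, all above the level filter, 8 were below 0, where 44.2% of genes above the filter were. Cops7b was at -0.25 and Cops6 at -0.23, whereas Gps1 (-0.02), Cops2 (-0.01) and Cops4 (-0.01) were near 0. The median of the 9 was -0.08. The only subunit above 0 was Cops3, at 0.04. Nedd8 itself was at 9.33 and 9.31.

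The other 7 cullins ranged from -0.07 (Cul2) to 0.39 (Cul7), with a median of 0.08, and Cul3, scaffold of the BTB ligases, was at 12.46 and 12.45. All 6 measured F-box genes that carry other names had a positive difference, where 46.9% of all genes did. Of the 6, 4 were above the level filter, where 53.5% of genes had a positive difference. The median of the 6 was 0.35. None passed 1.5-fold, where 1.76% of all genes were higher and 1.19% lower by that much. Btrc, the beta-TrCP gene related to Fbxw11, was at 9.86 and 10.05 (0.19). The histone demethylase genes Kdm2a (9.04 and 9.36, 0.32) and Kdm2b (7.77 and 8.15, 0.38), and Lmo7, which encodes a LIM domain protein (9.39 and 9.77, 0.38), were also higher. Ect2l (5.64 and 6.05) and Ccnf (4.78 and 4.88) were under the filter. Repeat quantile normalization lowered differences over all genes by a median of 0.03.

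Genes known to act beside Fbxo32 in atrophy had differences of both signs. Of the 19 measured, all above the level filter, 9 were above 0 and 10 below, with a median of -0.01. Among all genes above the filter 53.5% were above 0 and 44.2% below. Trim63 (MuRF1), the other classical atrophy ligase, was at 10.72 and 11.24 (0.52). The FOXO genes Foxo1 (8.65 and 9.14, 0.49) and Foxo3 (7.79 and 8.19, 0.40) were higher than in the wild-type array by amounts near that of Fbxo32, and Foxo4 was at 9.40 and 9.57 (0.17). Mstn, which encodes the growth inhibitor myostatin, passed 1.5-fold in the other direction (11.18 and 10.58, -0.60, 1.52-fold lower). Bnip3, a mitophagy receptor and FOXO target, was at 12.54 and 12.20 (-0.34), and Gabarapl1 was at 10.66 and 10.47 (-0.19). Other ligase genes of the list had small differences of both signs. Trim55 (9.87 and 9.69, -0.18), Stub1 (9.68 and 9.51, -0.17) and Trim54 (11.77 and 11.68, -0.09) were lower. Trim32 (0.17) and Traf6 (0.10) were higher, and Nedd4 (0.04) and Cblb (-0.01) were near equal. The autophagy gene Map1lc3a was at 10.45 and 10.49 (0.04). All but Mstn were within 1.5-fold, where 2.66% of genes above the filter were higher and 1.71% lower by that much.

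Transcripts of 19 known substrates ranged from -0.31 to 0.54 with a median of 0.09, and none passed 1.5-fold. All but 1 were above the level filter, where 2.66% of genes were higher and 1.71% lower by 1.5-fold. Of the Fbxo32 substrates, Myod1 was at 9.02 and 9.32 (0.30) and Eif3f at 12.06 and 12.08 (0.02). The 4 clock genes differed among themselves, with Per1 at 7.80 and 8.34 (0.54), Cry2 at 8.84 and 9.27 (0.43), Per2 at 7.30 and 7.48 (0.18) and Cry1 at 7.74 and 7.65 (-0.09). Ccnd1, the cyclin D1 gene, was lowest at 8.40 and 8.09 (-0.31). F-box receptors act on proteins, so these transcript levels do not read the activity of any ligase.

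**Figure D3:**
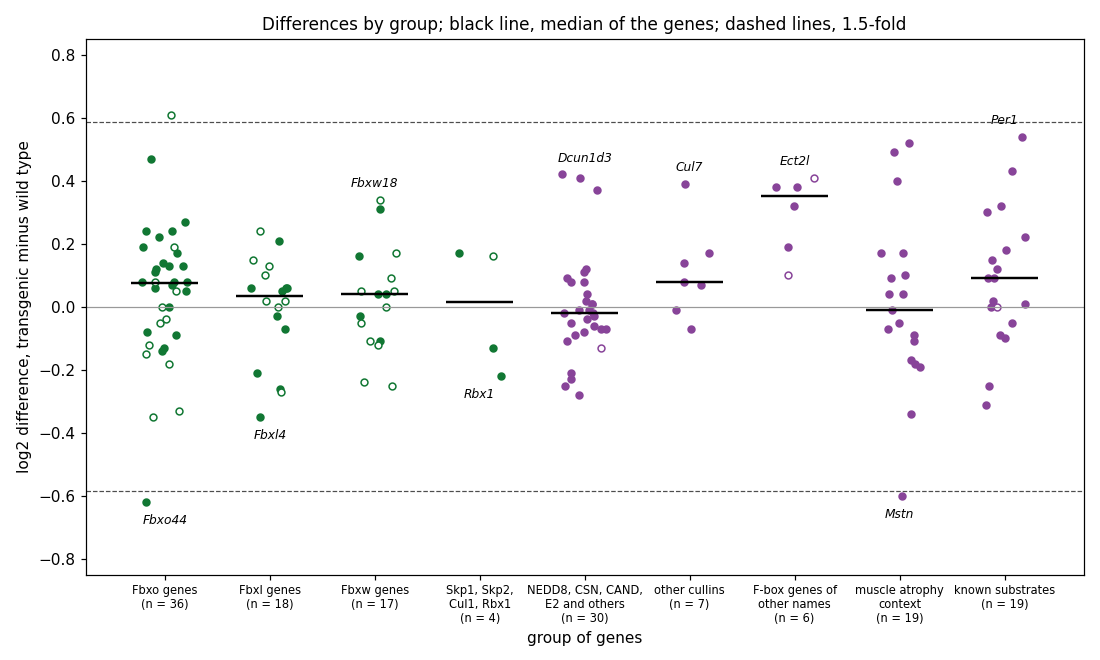
Log2 difference, transgenic minus wild type (y axis), of each gene by group (x axis, with the number of genes), for the members (green) and other genes of the pathway (purple), filled at or above the level filter and open under it. Black lines are medians of the genes and dashed lines mark 1.5-fold. Most medians lie within 0.10 of 0, and the 6 F-box genes of other names have the highest, 0.35.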

How the data were processed

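RNA of hindlimb muscle was measured on 1 array per genotype, and samples were grouped by their titles. Deposited values are log2 intensities for 35556 probe sets, given to 2 decimals and made by the authors with RMA in Partek, per the submitters' processing notes. Versions, single steps and the build are not stated there or in the labels. RMA compresses large ratios and gives no call against background. The median was 6.06 on both arrays and their sorted values differed by at most 0.14. The number of arrays limits the precision.

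Gene symbols came from the platform annotation and were checked by Entrez identifier against RefSeq GRCm38.p6, which held 21698 of 21789 probe sets with 1 symbol. Another 1621 had several symbols and 12146 none. For genes with several probe sets (4 members), that with the highest mean was used. Members, lists, named genes (core, muscle group, 1.5-fold differences, the 10 highest and 10 lowest differences, the 10 highest wild-type values, members with several probe sets, and ends of each list) and alternatives were chosen with earlier results of these data known. Other named genes were chosen after their values were seen. Counting used Python 3.11.15, pandas 2.3.3 and statsmodels 0.14.6 and was tested on simulated data. No p-value or SD is given. Promoter sequences are from RefSeq.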

Additional observations from a re-analysis of the deposited data

How the results depend on the processing

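No paired analysis was possible because each genotype has a single array. Counts and medians were recomputed with the level filter dropped, set at the olfactory receptor percentile or asked of both arrays, at 2-fold, with probe sets averaged or limited to genes that have just 1, after centring, after a loess trend (span 0.3, 3 iterations) was taken out, and after another quantile normalization. Leaving out Fbxl12os and using the other Rbx1 probe set were chosen after seeing the data. The count of members higher by 1.5-fold was 0, and it was 1 with the filter dropped, which adds Fbxo47. The count lower by 1.5-fold was 1, and 0 at 2-fold. The median of the members above the filter, 0.06, was 0.025 after repeated quantile normalization, where that of all genes above the filter was -0.01. It was 0.04 after loess, and between 0.05 and 0.06 under the others. For the 31 named members, 125 differences were recomputed. Not all of these could move. Centring subtracted a median over all genes of 0.00, and averaging could change only members with several probe sets. None of the 125 differences moved by more than the spread among genes of like level. The largest shift was 0.14 (the other Rbx1 probe set), and 1 changed sign (Fbxl22). Fbxo44 remained at least 1.5-fold lower and Fbxo32 under 1.5-fold in each scaling, at -0.62 to -0.66 and 0.44 to 0.48. Without replicates no value has an error, and dim probe sets have no call against background.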
